A study of Homo sapiens with 5 samples.

Results

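The genes described here are 45 genes of DNA replication and the S phase of the cell cycle, chosen by symbol from known replication factors. The choice was made with earlier results of these data known, so contrasts between the members and all genes are descriptions. They cover origin licensing, the replicative helicase, the DNA polymerases, the sliding clamp and its loader, RPA, the processing of Okazaki fragments, the supply of deoxynucleotides and the transcription factor E2F1. Each of the 45 symbols matched 1 row of the 60623 genes in the deposited table, and all 45 passed the filter on low counts that left 13833 genes for testing. Expression was measured by RNA-seq of HCT116 cells, an established human colorectal carcinoma line. There were 2 libraries of cells given LT4 (replicates 1 and 3) and 3 control libraries (replicates 1, 2 and 3). The series title names the compound 4-Acetylantrocamol LT3 where the design text and sample titles write LT4, and the labels give no dose, no time and no vehicle for the controls. The labels do not say that replicates were separate cultures, and p-values here weigh only how far these libraries vary, which may be technical. In the file headers each LT4 library has its own group. Whether LT4 replicates 1 and 3 were treated alike is not stated, and every value over both takes them as 1 group.

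Before S phase, the origin recognition complex (ORC) marks origins, and CDC6 and CDT1 load the MCM2-7 ring on DNA, a step that geminin blocks once licensing is over. In S phase CDC45 and the GINS complex bind the ring to form the active helicase, polymerase alpha-primase starts each strand, and polymerases epsilon and delta extend the leading and lagging strands on the PCNA clamp. Many of these genes are E2F targets whose mRNA is highest around the start of S phase, and proliferating tumour lines express them strongly. In bulk RNA, fewer cells in S phase and less replication mRNA per cell cannot be told apart.

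The libraries differed in depth, and LT4 replicate 3 stood apart. LT4 replicates 1 and 3 had 9840467 and 2281912 counts, against 11653484 to 12296916 counts in the controls. Genes with at least 1 count numbered 19377 and 16770 in LT4 replicates 1 and 3, against 19492 to 20203 in the controls. Mitochondrially encoded genes took 5.73% and 9.92% of the counts in LT4 replicates 1 and 3, against 5.83% to 6.64% in the controls. Of 9 epithelial and colon markers 7 passed the filter on low counts, among them KRT8, EPCAM, CDH1 and the intestinal factor CDX2 (60 to 404 counts), while VIL1 and LGALS4 had at most 4 and 9 counts in any library. Of 6 fibroblast markers only COL1A1 passed the filter, with 142 and 21 counts in LT4 replicates 1 and 3 and 179 to 190 in the controls, and DCN and PDGFRA were at 0 counts in all 5 libraries. The 6 fibroblast markers summed to 14.1 and 9.56 CPM in LT4 replicates 1 and 3, against 16.0 to 17.7 CPM in the controls. CPM are counts scaled to library totals that were first adjusted by edgeR's TMM factors. The part of these markers in the results was not tested. None of 6 leukocyte markers passed the filter, and PTPRC and CD3E were at 0 counts in all 5. Genes given with CPM below have a value for each LT4 library. A fold change or range given alone does not show how far it rests on 1 of them.

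The promoters of the replication genes held E2F and CCAAT words more often than those of all genes, a feature that the list did not use. RefSeq windows (GRCh38.p14) were at hand for 39 of the 45 members, 49 windows in all, and the 250 bases before each annotated start were searched on both strands. An E2F word, taken as TTTCCCGC, TTTCGCGC, TTTGCCGC or TTTGGCGC, stood in 15 of the 49 windows (30.6%), against 2.79% of the 35116 windows of all genes. The CCAAT box, spelled CCAAT, was in 61.2% of the member windows, against 32.0% of all windows. The CHR word TTTGAA, a feature of many promoters of late cell cycle genes, was in 2.04% of the member windows, against 13.3% of all windows. The windows of all genes come from 27305 genes, while only 13833 genes passed the filter on low counts here. Many of the genes behind the windows thus did not pass, while every member did. How far this affects the contrasts was not tested. A match describes the letters of the window and is not a binding site. The windows printed here, 5′ to 3′ on the gene's strand with the E2F word in capitals, are those with such a word among the members that passed the test of a single LT4 library against the controls, given further on (GMNN, POLE, PCNA and RFC3), and of MCM6, which held the most. Both strand directions occur, and the reverse complement of TTTGGCGC reads GCGCCAAA, that of TTTCCCGC reads GCGGGAAA.
GMNN: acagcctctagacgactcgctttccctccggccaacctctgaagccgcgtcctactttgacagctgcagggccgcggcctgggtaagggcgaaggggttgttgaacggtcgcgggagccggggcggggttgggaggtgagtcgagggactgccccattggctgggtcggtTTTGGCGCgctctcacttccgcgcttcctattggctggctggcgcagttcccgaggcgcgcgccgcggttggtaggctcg
POLE: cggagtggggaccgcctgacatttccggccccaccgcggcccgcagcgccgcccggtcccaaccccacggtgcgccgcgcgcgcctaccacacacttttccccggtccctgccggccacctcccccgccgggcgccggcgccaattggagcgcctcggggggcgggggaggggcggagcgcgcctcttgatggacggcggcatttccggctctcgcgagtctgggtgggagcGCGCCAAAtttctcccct
PCNA: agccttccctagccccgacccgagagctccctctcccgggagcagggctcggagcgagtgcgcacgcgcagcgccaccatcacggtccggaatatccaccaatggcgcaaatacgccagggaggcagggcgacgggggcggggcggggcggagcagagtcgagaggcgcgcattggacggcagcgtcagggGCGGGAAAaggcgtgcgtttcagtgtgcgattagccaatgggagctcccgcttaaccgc
RFC3: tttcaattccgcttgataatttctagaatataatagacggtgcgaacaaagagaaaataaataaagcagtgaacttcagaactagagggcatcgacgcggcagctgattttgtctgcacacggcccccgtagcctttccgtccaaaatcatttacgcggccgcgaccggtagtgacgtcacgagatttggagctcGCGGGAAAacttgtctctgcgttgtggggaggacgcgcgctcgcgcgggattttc
MCM6: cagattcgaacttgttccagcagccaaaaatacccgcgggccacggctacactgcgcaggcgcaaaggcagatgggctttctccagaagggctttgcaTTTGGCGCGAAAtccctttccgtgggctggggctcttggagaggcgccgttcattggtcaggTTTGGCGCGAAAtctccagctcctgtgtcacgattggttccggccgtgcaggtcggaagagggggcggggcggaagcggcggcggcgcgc
The windows lie at chr6:24775163-24775412 on the plus strand for GMNN, chr12:132687343-132687592 on the minus strand for POLE, chr20:5126623-5126872 on the minus strand for PCNA, chr13:33817899-33818148 on the plus strand for RFC3 and chr2:135876444-135876693 on the minus strand for MCM6. The first base of the word lay 80 bases before the RefSeq start in GMNN, 18 in POLE, 59 in PCNA and 55 in RFC3. By the GENCODE 29 positions given below, GMNN, POLE and RFC3 begin further upstream, and their words lie inside the annotated gene. GMNN and PCNA each had 2 RefSeq windows, and the window not printed held 0 E2F words. MCM6 held 4 words in 2 overlapping pairs, TTTGGCGC with the reverse complement of TTTCGCGC, at 152 and 148 bases and at 90 and 86 bases before the start. The members with an E2F word (n = 15) had a median log2 fold change of -0.16, LT4 over control, and 10 of them were negative. The members whose windows held none (n = 24) had a median of -0.09, and 17 of them were negative.

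In control cells the levels of these genes, in deposited TPM (transcript counts corrected for gene length and scaled to a fixed library sum), covered a wide range. TK1, the thymidine kinase that salvages thymidine for DNA synthesis, was highest at 1181 ± 179 TPM with LT4 (SD, n = 2) and 1458 ± 35.0 TPM in controls (SD, n = 3). MCM7, a subunit of the helicase ring, came next at 522 ± 158 TPM with LT4 and 597 ± 77.4 TPM in controls, and PCNA, the clamp, followed at 372 ± 22.4 TPM with LT4 and 456 ± 13.6 TPM in controls. TK1 and MCM7 led in both groups. POLD2, a small subunit of polymerase delta, lay at 374 ± 76.4 TPM with LT4 and 411 ± 14.6 TPM in controls, and with LT4 it differed from PCNA by less than their spread. The lowest were ORC2, an ORC subunit, at 5.35 ± 2.13 TPM with LT4 and 6.61 ± 0.977 in controls, POLD3, an accessory subunit of polymerase delta, at 7.03 ± 0.623 TPM with LT4 and 6.00 ± 0.725 in controls, and POLE2, an accessory subunit of polymerase epsilon, at 5.84 ± 1.43 TPM with LT4 and 4.79 ± 0.361 in controls. In the controls ORC2 and POLD3 overlapped and POLE2 lay below both, and with LT4 the mean of ORC2 was the lowest of the 3.

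In deposited TPM, subunits of 1 complex were not at 1 level, and their order depends on the length assigned to each gene. In the controls the mean TPM of the ring subunits was 597 for MCM7, 265 for MCM2, 250.1 for MCM3, 136 for MCM5, 102 for MCM4 and 80.0 for MCM6, and MCM2 and MCM3 differed by less than their spread. On CPM, without correction for length, MCM5 was at 375 ± 45.4 and MCM3 at 347 ± 17.8 in the controls. ORC1, the ORC subunit that is itself regulated over the cell cycle, was at 36.0 ± 3.66 TPM in controls, against 6.61 to 14.1 TPM for the 4 other ORC subunits of the list. GINS2 was at 129 ± 3.74 TPM, whereas GINS1, GINS3 and GINS4 lay between 14.0 and 17.7 TPM. RPA3, the smallest RPA subunit, was at 9.30 ± 0.320 TPM beside 101 ± 3.67 for RPA1 and 109 ± 3.72 for RPA2. On CPM the control means were 11.5 for RPA3, 210 for RPA1 and 82.6 for RPA2. In the clamp loader, RFC2 (103 TPM) and RFC5 (53.6 TPM) were above RFC4 (31.9 TPM), RFC3 (11.7 TPM) and RFC1 (9.41 TPM), and the control libraries of RFC3 and RFC1 overlapped. Reads can be shared where genes overlap: 19 members share exon bases with another annotated gene, 8 of them over at least 10% of their exon bases, and the strand setting of the counting is not given in the sources used here. TYMS has the largest such share, 46.6%, with ENOSF1 and TYMSOS on the opposite strand, followed by POLA2 (35.1%, same strand) and MCM2 (23.6%, opposite strand).

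**Figure D1:**
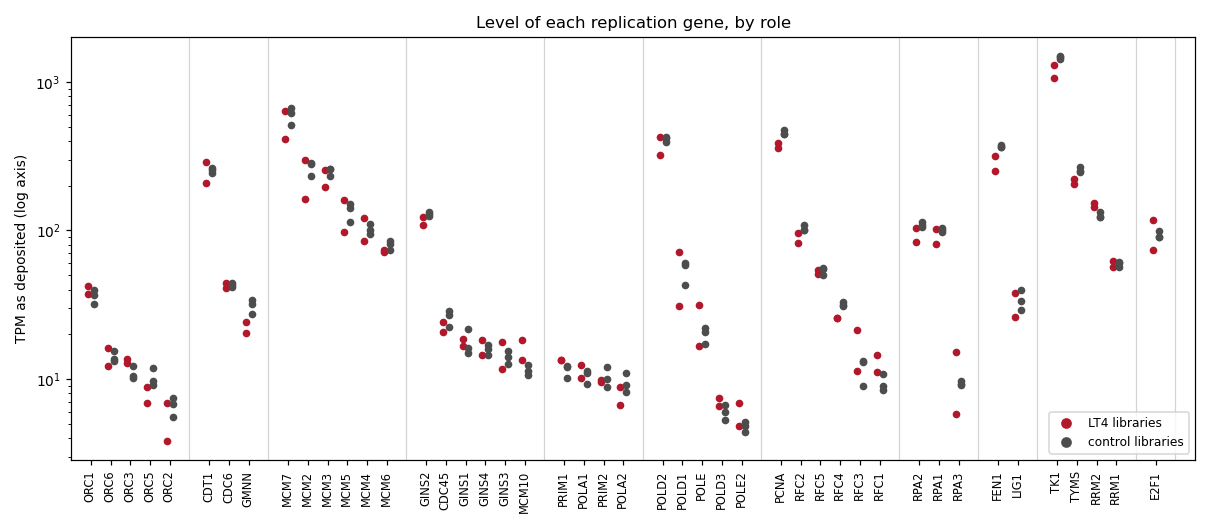
Deposited TPM (log axis) of each of the 45 replication genes, 1 point per library, LT4 left of control, grouped by role and ordered within a role by the control mean. TK1, with control values of 1418 to 1482 TPM, is highest and POLE2, with control values of 4.42 to 5.14 TPM, is lowest.

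Taken over the list, the summed level was 5715 and 4604 TPM in LT4 replicates 1 and 3, against 6017, 5955 and 5625 TPM in controls 1, 2 and 3. LT4 replicate 1 thus lay within the range of the controls and LT4 replicate 3 below it. Mitochondrially encoded genes took 183448 and 248347 TPM in LT4 replicates 1 and 3, against 172035 to 193815 TPM in the controls, and since TPM sums to a fixed total, their part in the lower sum was not tested. TMM-scaled CPM, which has no correction for gene length, is the scale of the main tests and of the gene values by library below. On it the sums were 6914 and 6281 in LT4 replicates 1 and 3, against 7408, 7562 and 7071 in the controls. The groups did not overlap. As a percentage of each library's counts, the members took 0.711% and 0.634% in LT4 replicates 1 and 3. The controls had 0.743%, 0.730% and 0.703%, and there the groups overlapped. The TMM factors ran from 0.966 in control 2 to 1.03 in LT4 replicate 1, and the separation depended on them.

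None of the 45 replication genes passed the test of LT4 against control, edgeR's quasi-likelihood F test with Benjamini-Hochberg adjustment over all 13833 genes at 0.05. Over all genes 0.123% passed as higher and 0.0145% as lower, so few genes passed at all, and a count of 0 among 45 is near that background. DESeq2 and limma voom called 0 members too, while 0.831% and 0.202% of all genes passed by those tools. At an unadjusted p under 0.05, 1 member was higher (RFC1; 8.58% of all genes) and 4 were lower (FEN1, GMNN, TK1 and RFC4; 5.28% of all genes). The members' adjusted p ran from 0.198 to 0.992. With LT4 replicate 1 or LT4 replicate 3 left out, 4 and 3 members passed, and those comparisons are given below.

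The sizes of the differences over both LT4 libraries together were small. That includes members in which the 2 libraries went opposite ways. With LT4 replicates 1 and 3 alone, RPA3 was -0.81 and 0.80 and POLD1 was 0.27 and -0.71. Log2 fold changes of LT4 over control ran from -0.55 for GMNN to 0.44 for RFC1, with a median of -0.10 over the members, against -0.003 over all genes tested. Of the members 31 were negative and 14 positive (68.9% negative), against 50.4% negative over all genes. The lean was weaker in each LT4 library alone. With LT4 replicate 1 alone 27 of the 45 were negative, and with LT4 replicate 3 alone also 27. Over all 13833 genes 6992 and 7068 were negative. The 95% interval of the fold change lay within 2-fold either way for 44 of 45 members (97.8%), against 68.3% of all genes, and RFC3 was the exception. These shares depend on the SE, which was smaller for the members (median 0.163, maximum 0.365) than for all genes (median 0.215, maximum 3.02). They do not show that the members changed less than other genes. Both LT4 libraries lay below all controls for 12 members (26.7%), against 16.5% of all genes, and above all controls for 3 members (6.67%), against 17.3%. For the other 30 members the groups overlapped.

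**Figure D2:**
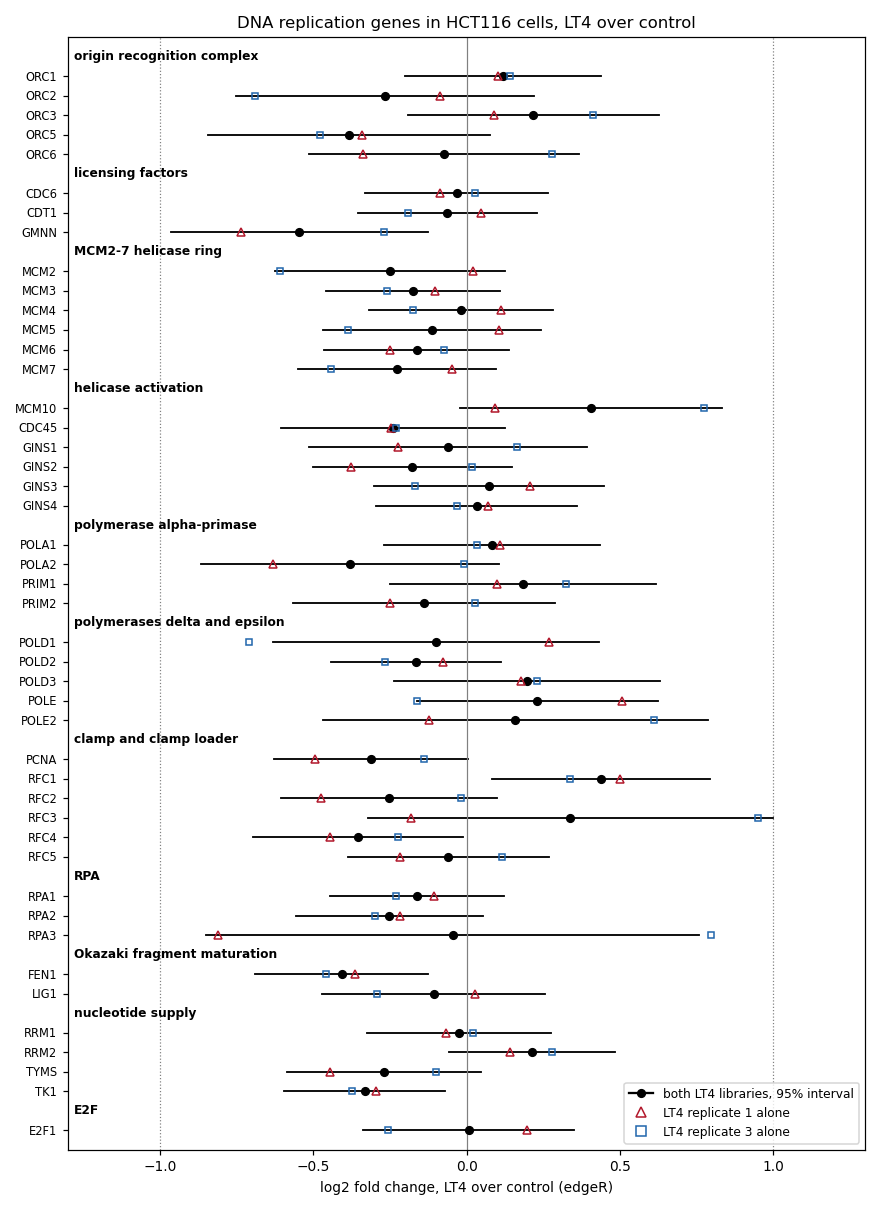
Log2 fold change of each replication gene, LT4 over control, by role: black points and bars are the fit to both LT4 libraries with its unadjusted 95% interval, red triangles LT4 replicate 1 alone and blue squares LT4 replicate 3 alone, and dotted lines mark 2-fold. The black points lie between -0.55 and 0.44, and the triangle and the square lie on opposite sides of 0 for 20 of the 45 members.

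Among the licensing genes, geminin carried the lowest fold change of the list. GMNN, the CDT1 inhibitor (ENSG00000112312, GRCh38 chromosome 6, 24774931 to 24786099, plus strand), had 17.6 and 24.3 CPM in LT4 replicates 1 and 3, against 28.95, 26.1 and 32.8 CPM in controls 1, 2 and 3. Both LT4 libraries were below every control, LT4 replicate 3 by less than the controls differed from each other. The log2 fold change was -0.55 (SE 0.19, edgeR adjusted p = 0.242). CDC6 and CDT1, which load the ring, had log2 fold changes of -0.03 and -0.06, and their CPM overlapped between the groups. The 5 ORC subunits ran from -0.38 (ORC5) to 0.22 (ORC3), and only ORC5 had groups that did not overlap. ORC5 had 11.5 and 10.4 CPM in LT4 replicates 1 and 3, in replicate 3 from 24 counts, against 13.4, 13.0 and 17.2 CPM in controls. Both LT4 libraries were below the controls by less than the controls differed (SE 0.21, edgeR adjusted p = 0.444). ORC3 (ENSG00000135336) had 16.3 and 20.4 CPM in LT4 replicates 1 and 3, against 16.6, 14.8 and 14.5 CPM in controls (SE 0.19, edgeR adjusted p = 0.642). ORC2 (ENSG00000115942) had 13.8 and 9.12 CPM in LT4 replicates 1 and 3, in replicate 3 from 21 counts, against 14.6, 12.5 and 17.0 CPM in controls (log2 fold change -0.27, SE 0.23, edgeR adjusted p = 0.632).

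All 6 subunits of the helicase ring had a negative log2 fold change, from -0.02 (MCM4) to -0.25 (MCM2), with edgeR adjusted p of 0.521 to 0.971, and MCM4 alone turned positive with library totals as the scaling (0.028) or with all libraries thinned to 1 depth (0.014). MCM2 (ENSG00000073111) had 483 and 313 CPM in LT4 replicates 1 and 3, against 493, 509 and 425 CPM in controls 1, 2 and 3. MCM7 (ENSG00000166508) had 963 and 733 CPM with LT4, against 1072, 1038 and 874 CPM in controls. MCM5 (ENSG00000100297) had 403 and 288 CPM with LT4, against 404, 399 and 323 CPM in controls. In these 3 subunits LT4 replicate 1 fell within the range of the controls and LT4 replicate 3 below it. MCM4 (ENSG00000104738) had 293 and 240.2 CPM in LT4 replicates 1 and 3, against 285, 271 and 257 CPM in controls. MCM6 (ENSG00000076003) had 106 and 119.9 CPM with LT4, against 129, 129.8 and 119 CPM in controls. MCM3 (ENSG00000112118) had 323 and 291 CPM with LT4, against 349, 363 and 328 CPM in controls, the 1 subunit whose groups did not overlap. The shared sign depended on LT4 replicate 3. With LT4 replicate 1 alone 3 of the 6 were positive, with LT4 replicate 3 alone 0 of 6. With a trend on GC content removed from each library, the log2 fold change was -0.15 for MCM2, -0.12 for MCM7, -0.013 for MCM5 and -0.28 for MCM6.

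The ring subunits also moved together within the control group, where no treatment differed. Control 3 was the lowest control for 6 of 6 ring subunits, against 34.9% of all genes tested, and LT4 replicate 3 was below LT4 replicate 1 for 5 of 6, against 49.4% of all genes, MCM6 being the exception. Over the 45 members, the log2 difference between LT4 replicates 3 and 1 and the log2 difference between control 3 and the mean of controls 1 and 2 had a Pearson r of 0.54 and a Spearman rho of 0.61, against 0.19 and 0.33 over all genes. Each of these differences also went with the GC content of the longest transcript over the members, with r of -0.50 between the LT4 libraries and -0.51 between the controls, against -0.22 and -0.23 over all genes. With the log2 exon length, r was -0.39 and -0.31 over the members, against -0.14 and -0.12 over all genes. Which of these properties matters was not tested. The points share their libraries and are genes, not replicates, and the values are a description.

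**Figure D3:**
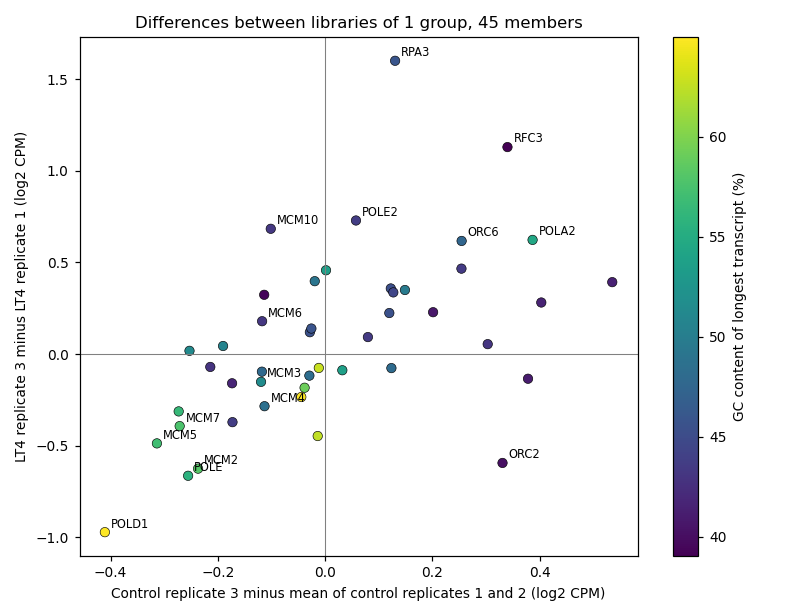
Difference in log2 CPM between LT4 replicates 3 and 1 (vertical axis) against the difference between control 3 and the mean of controls 1 and 2 (horizontal axis) for the 45 replication genes, coloured by the GC content of the longest transcript. POLD1, MCM2, MCM5, MCM7 and POLE lie low on both axes and RFC3 high on both (Pearson r of 0.54, n = 45 genes).

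Of the genes that turn the ring into the active helicase, MCM10, which helps origins fire, had the highest fold change. MCM10 (ENSG00000065328, chromosome 10, 13161554 to 13211104, plus strand) had 25.4 and 40.8 CPM in LT4 replicates 1 and 3, against 24.9, 23.8 and 22.7 CPM in controls. Both LT4 libraries were above every control, but LT4 replicate 1 was so by less than the controls differed. The log2 fold change was 0.41 (SE 0.20, edgeR adjusted p = 0.387). CDC45, the helicase cofactor, lay the other way, with 24.9 and 25.2 CPM with LT4 and 29.7, 32.7 and 26.1 CPM in controls (log2 fold change -0.24). GINS1 to GINS4 ran from -0.18 to 0.07, and their groups overlapped.

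The polymerases held members in which the LT4 libraries went opposite ways. POLE, the catalytic subunit of polymerase epsilon (ENSG00000177084, chromosome 12, 132623753 to 132687365, minus strand), had 182 and 115 CPM in LT4 replicates 1 and 3, against 137, 134 and 113 CPM in controls. LT4 replicate 1 was above every control and LT4 replicate 3 near the lowest. The log2 fold change over both was 0.23 (SE 0.18, edgeR adjusted p = 0.602). POLD1, the catalytic subunit of polymerase delta (ENSG00000062822, chromosome 19, 50384204 to 50418016, plus strand), had 122 and 62.1 CPM in LT4 replicates 1 and 3, against 106, 115 and 83.0 CPM in controls. LT4 replicate 1 was the highest library and LT4 replicate 3 the lowest, and the log2 fold change over both was -0.10 (SE 0.24, edgeR adjusted p = 0.898). POLE2 (ENSG00000100479) had 4.94 and 8.25 CPM with LT4, from 50 and 19 counts, against 5.596, 5.02 and 5.52 CPM in controls (log2 fold change 0.16, SE 0.29, edgeR adjusted p = 0.854). POLD3 (ENSG00000077514) had 14.2 and 14.8 CPM with LT4, against 12.2, 11.2 and 14.4 CPM in controls (log2 fold change 0.20, SE 0.20, edgeR adjusted p = 0.7). The 4 subunits of polymerase alpha-primase ran from -0.38 (POLA2) to 0.18 (PRIM1), and the groups overlapped in all 4.

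The clamp and its loader gave the 1 positive member at an unadjusted p under 0.05. RFC1, the large subunit of the loader (ENSG00000035928, chromosome 4, 39287456 to 39366375, minus strand), had 34.0 and 30.4 CPM in LT4 replicates 1 and 3, against 26.8, 23.2 and 22.1 CPM in controls. The LT4 values were above every control, and the log2 fold change was 0.44 (SE 0.17, edgeR adjusted p = 0.265). RFC4, a small subunit (ENSG00000163918, chromosome 3, 186789880 to 186807058, minus strand), lay the other way. It had 26.8 and 31.3 CPM with LT4, against 34.4, 36.5 and 38.5 CPM in controls (log2 fold change -0.35, SE 0.16, edgeR adjusted p = 0.346). PCNA (ENSG00000132646, chromosome 20, 5114953 to 5126626, minus strand) had 173 and 222 CPM in LT4 replicates 1 and 3, against 231, 242 and 258 CPM in controls. Both LT4 libraries were below every control, LT4 replicate 3 by less than the controls differed (log2 fold change -0.31, SE 0.15, edgeR adjusted p = 0.37; -0.18 with a trend on gene length removed). RFC3, a small subunit (ENSG00000133119, chromosome 13, 33818049 to 33966558, plus strand), had 11.3 and 24.8 CPM in LT4 replicates 1 and 3, in replicate 3 from 57 counts, against 13.7, 9.87 and 14.8 CPM in controls. Its log2 fold change was 0.34 (SE 0.30, edgeR adjusted p = 0.654) with a 95% interval of -0.32 to 1.00, and 0.073 with the GC trend removed. RFC2 and RFC5 had log2 fold changes of -0.25 and -0.06. With LT4 replicates 1 and 3 alone, RFC2 was -0.47 and -0.02, and RFC5 was -0.22 and 0.12.

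Among RPA subunits, which coat single-stranded DNA, RPA1 had 195 and 179.8 CPM with LT4, against 211, 212 and 207 CPM in controls, and RPA2 had 71.0 and 67.3 CPM with LT4, against 79.7, 80.7 and 87.4 CPM in controls. Neither overlapped between the groups, with log2 fold changes of -0.16 and -0.25. RPA3 (ENSG00000106399, chromosome 7, 7636518 to 7718607, minus strand) had 6.52 and 20.0 CPM in LT4 replicates 1 and 3, from 66 and 46 counts, against 10.8, 11.4 and 12.2 CPM in controls. The LT4 libraries lay on either side of all controls, and the fitted log2 fold change of -0.05 (SE 0.37, edgeR adjusted p = 0.972) was negative although the mean CPM was higher with LT4.

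The smallest p of the list belonged to FEN1, the nuclease that trims the flaps of Okazaki fragments (ENSG00000168496, chromosome 11, 61792637 to 61797244, plus strand). FEN1 had 239.7 and 225 CPM in LT4 replicates 1 and 3, against 295, 318 and 313 CPM in controls 1, 2 and 3. Both LT4 libraries were below every control by more than either group's own spread. The log2 fold change was -0.41 (SE 0.13, edgeR adjusted p = 0.198). LIG1, the ligase that seals the fragments, had 86.9 and 69.9 CPM with LT4 and 80.9, 101 and 74.6 CPM in controls, and the groups overlapped (log2 fold change -0.11).

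The genes of nucleotide supply did not share a direction. TK1 (ENSG00000167900, chromosome 17, 78174075 to 78187233, minus strand) had 835 and 792 CPM in LT4 replicates 1 and 3, against 1002, 1052 and 1018 CPM in controls. Both LT4 libraries were below every control by more than either group's own spread, and the log2 fold change was -0.33 (SE 0.12, edgeR adjusted p = 0.256). It was -0.17 with the GC trend removed and -0.20 with the length trend removed. TYMS, the thymidylate synthase (ENSG00000176890, chromosome 18, 657604 to 673578, plus strand), had 172 and 219 CPM with LT4, against 223, 229.8 and 251 CPM in controls (log2 fold change -0.27, SE 0.15, edgeR adjusted p = 0.436; -0.15 with the length trend removed), with the overlap with ENOSF1 named above. RRM2, the regulated subunit of ribonucleotide reductase (ENSG00000171848, chromosome 2, 10120698 to 10131419, plus strand), had 486 and 536 CPM with LT4, against 451, 435 and 435 CPM in controls. The LT4 values were above every control (log2 fold change 0.21, SE 0.13, edgeR adjusted p = 0.475). RRM1, the large subunit, had a log2 fold change of -0.02. E2F1, which drives transcription of many of these genes, had 109.6 and 80.4 CPM with LT4 and 89.9, 102 and 94.98 CPM in controls, with a log2 fold change of 0.01.

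**Figure D4:**
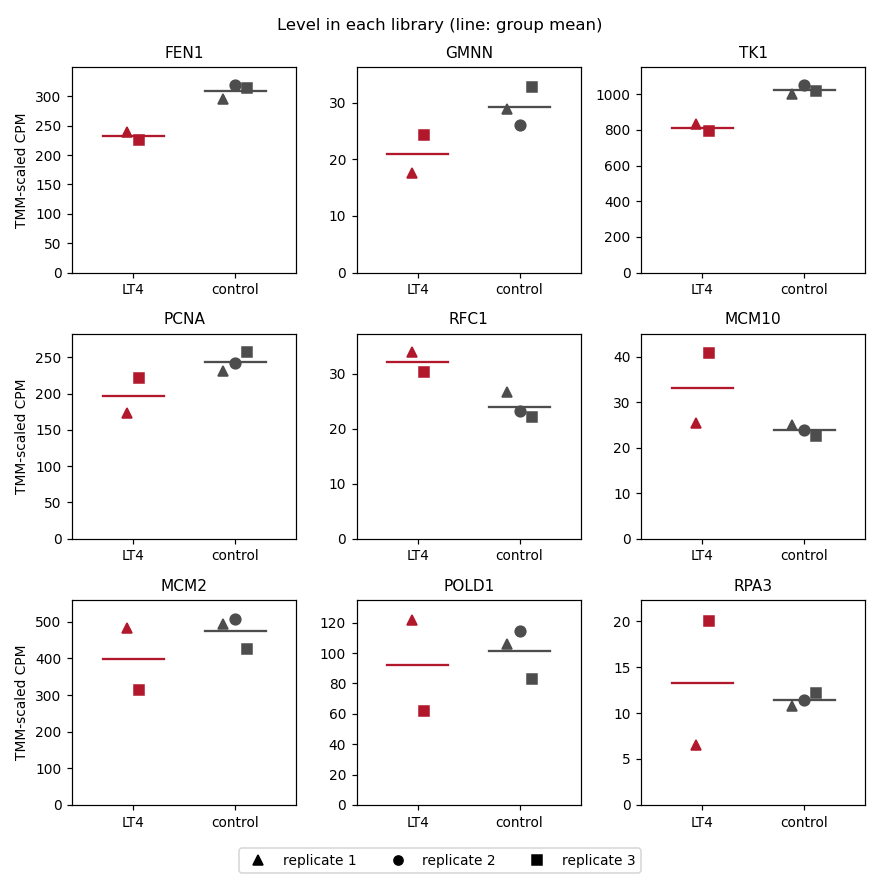
TMM-scaled CPM of 9 replication genes, 1 point per library with its replicate number as the shape, LT4 left of control, lines at group means. In FEN1, GMNN, TK1 and PCNA both LT4 points lie below all controls, in RFC1 and MCM10 above, and in POLD1 and RPA3 the LT4 points lie on either side of the controls.

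Set against the controls 1 at a time, the LT4 libraries did not call the same replication genes. Few of all genes were called with both, so the lack of a shared call among 45 members is near that background. With LT4 replicate 1 alone, 1 member was higher (POLE, log2 fold change 0.51, SE 0.14, edgeR adjusted p = 0.034) and 2 were lower (GMNN, -0.73, SE 0.20, adjusted p = 0.0275; PCNA, -0.49, SE 0.14, adjusted p = 0.0428). Over all genes 2.32% were higher and 1.17% lower in that comparison. With LT4 replicate 3 alone, 2 members were higher (MCM10, 0.77, SE 0.22, edgeR adjusted p = 0.0295; RFC3, 0.95, SE 0.28, adjusted p = 0.0392) and 2 were lower (MCM2, -0.61, SE 0.15, adjusted p = 0.0146; POLD1, -0.71, SE 0.19, adjusted p = 0.0297). Over all genes 2.51% were higher and 1.75% lower. These comparisons share the 3 controls, and the spread of a lone LT4 library is taken to be theirs. No member was called in both, against 77 of all 13833 genes (0.557%). The sign was the same in both for 25 of 45 members (55.6%), near the 59.4% of all genes. The authors' deposited table, which compares each LT4 library with the controls, lists at an adjusted p under 0.05 POLE as higher and GMNN and RPA3 as lower for LT4 replicate 1 (4.44% of all genes higher, 1.65% lower). For LT4 replicate 3 the authors' deposited table lists MCM10 and RFC3 as higher and MCM2 and POLD1 as lower (3.31% and 1.53% of all genes).

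The difference between the LT4 libraries was tested directly, with LT4 replicates 1 and 3 as separate groups and the spread taken from the controls, which compares these libraries and not conditions. By edgeR's quasi-likelihood test 3 members differed (2.44% of all genes did). POLD1 was higher in LT4 replicate 1 by 0.97 on the log2 scale (SE 0.22, edgeR adjusted p = 0.0140) and MCM2 by 0.63 (SE 0.18, adjusted p = 0.0489), and RPA3 was lower by a log2 difference of -1.61 (SE 0.36, adjusted p = 0.00890). With a trend on GC content removed from each library, 0 members differed, and 0.318% of all genes did. The log2 differences were then 0.70 for POLD1 (SE 0.22, edgeR adjusted p = 0.179), 0.45 for MCM2 (SE 0.16, adjusted p = 0.226) and -1.49 for RPA3 (SE 0.31, adjusted p = 0.0651), each of the same sign and smaller. With a trend on gene length removed, POLD1, RFC3 and RPA3 differed (2.58% of all genes), and with all libraries thinned to the depth of LT4 replicate 3, POLD1 and POLE (3.51% of the 10595 genes tested). None of the other calls of the single-library comparisons, MCM10, RFC3, POLE, GMNN or PCNA, differed between the LT4 libraries in this test, with adjusted p of 0.150, 0.0553, 0.0554, 0.442 and 0.323.

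Other genes of the cell cycle put the members in context, and none passed in the same fit. Of 38 further replication and S-phase genes 37 were tested, with 0 past the threshold and a median log2 fold change of 0.12. At an unadjusted p under 0.05, 5 of the 37 were higher (13.5%, against 8.58% of all genes) and 0 lower (5.28% of all genes). For 9 (24.3%) the LT4 values exceeded every control value, against 17.3% of all genes, and for 5 (13.5%) they were under every one, against 16.5%. CLSPN, the checkpoint mediator claspin, had 30.8 and 42.1 CPM with LT4, against 23.8, 19.5 and 19.3 CPM in controls (log2 fold change 0.76, SE 0.19, edgeR adjusted p = 0.117). WDHD1, a replisome adaptor, had a log2 fold change of 0.58 (SE 0.20, edgeR adjusted p = 0.231), and the lowest p among negative values were those of RNASEH2A (-0.81, SE 0.40, adjusted p = 0.393) and DCTPP1 (-0.25, SE 0.13, adjusted p = 0.427).

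Of 18 G1/S regulators 0 passed, and the median was 0.25. At an unadjusted p under 0.05, 4 of the 18 were higher (8.58% of all genes) and 0 lower (5.28% of all genes). For 8 of the 18 (44.4%) the LT4 values exceeded every control value, against 17.3% of all genes, and for 1 (5.56%) they were under every one, against 16.5%. E2F7, a repressor among the E2F factors, had 13.3 and 12.2 CPM with LT4, against 7.14, 6.23 and 6.47 CPM in controls (log2 fold change 0.96, SE 0.21, edgeR adjusted p = 0.0994). CCND1, cyclin D1, had 411 and 427 CPM with LT4, against 288, 293 and 309.6 CPM in controls (log2 fold change 0.50, SE 0.13, edgeR adjusted p = 0.117), and MYBL2 and TFDP1 had -0.18 and -0.17. Of 24 G2/M genes tested 0 passed and the median was 0.07. At an unadjusted p under 0.05, 5 of the 24 were higher (8.58% of all genes) and 1 lower (5.28% of all genes). For 8 of the 24 (33.3%) the LT4 values exceeded every control value, against 17.3% of all genes. For 5 (20.8%) they were under every one, against 16.5%. ECT2, needed for cytokinesis, had a log2 fold change of 0.99 (SE 0.20, edgeR adjusted p = 0.0759) and TOP2A, the topoisomerase of dividing cells, 0.77 (SE 0.17, adjusted p = 0.0969), whereas CCNB1, cyclin B1, had -0.31 (SE 0.13, adjusted p = 0.305) and AURKB -0.23 (SE 0.14, adjusted p = 0.489). DESeq2, by which 0.701% of all genes were higher, called 1 G1/S regulator (CCND1) and 3 G2/M genes (ECT2, TOP2A and CENPF) as higher with LT4.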

How the data were processed

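Poly(A) RNA of 5 HCT116 libraries was sequenced after TRIzol extraction and a stranded TruSeq mRNA kit, per the labels' protocols. The submitters' processing notes name GRCh38, featureCounts, Subread 2.0.1, SAMtools 1.9, HISAT2 2.1.0 and fastp 0.20.0. Their order and settings, the annotation and the strand setting were not given in the sources used here. The deposited table holds raw counts per gene and library and the authors' TPM values, per the file headers. Per the file headers the authors also deposited a log2 fold change, a p-value and its adjusted form for every LT4 library, with no test named. There were 2 further per-sample columns, headed as LT4 replicate 2, that matched no sample, and these and 5 comparison columns were left unused.

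Sample titles gave the groups. Counts were tested in R 4.3.3 with edgeR 4.0.16 (expression filter, TMM scaling, robust quasi-likelihood F test, group as the only term, Benjamini-Hochberg adjustment over 13833 genes, threshold 0.05). SE is the absolute log2 fold change over the square root of F, and 95% intervals are per gene and unadjusted. The biological coefficient of variation was 14.6%. CPM is TMM-scaled; deposited TPM served for levels between genes and for the summed level per library, and was not tested. Positions are from GENCODE 29 and promoters from RefSeq. Alternatives used DESeq2 1.42.0 and limma 3.58.1; figures were drawn with matplotlib 3.10.9 and tables made with pandas 2.3.3 in Python 3.11.15. The edgeR fit was tested on simulated data.

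LT4 replicate 3 had 2281912 counts, in which 3 counts are 1.31 CPM, against 0.305 CPM in LT4 replicate 1, so low members are least certain there. The members and gene lists were chosen with earlier results of these data known. Named in full were the 6 members with the smallest p in each direction, the 4 whose values in the LT4 libraries differed most, the 3 highest and 3 lowest by control TPM and the MCM2-7 subunits; in the other lists, the 2 genes with the smallest p in each direction. ORC5, CDC45, RPA1, RPA2, POLD2, LIG1 and E2F1, given with values, were chosen after their values were seen. Alternatives were RLE size factors, library totals, a minimum of 50 counts in 2 or more libraries, no count filter, a replicate block, each library left out in turn, limma voom, DESeq2, thinning to equal depth, protein-coding genes only, a length trend, an adjusted p under 0.01 and, for levels, CPM in place of TPM. The GC trend and the test between the LT4 libraries were added after seeing the data.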

Additional observations from a re-analysis of the deposited data

How the results depend on the processing

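No replication gene passed under any alternative that kept both LT4 libraries, except GMNN (log2 fold change -0.60, edgeR adjusted p = 0.0431) with the replicate number as a block, which called 1 member lower. The block called 427 of all genes (3.09%) instead of 19. Only the numbers 1 and 3 occur in both groups and nothing says what they mark. Deviations from the group means correlated at 0.198 between LT4 replicate 1 and control 1 and at 0.188 between LT4 replicate 3 and control 3, over genes. With 2 LT4 libraries their deviations are equal and opposite, so these values are not independent. The correlation was -0.198 between LT4 replicate 3 and control 1 and -0.188 between LT4 replicate 1 and control 3. With 2 pairs and no label for the numbers, the samples are taken to share only a number. Leaving out 1 library gave 0 to 2 members higher and 0 to 2 lower, and 1 to 589 genes in all, with 1 gene without any 1 control, 483 without LT4 replicate 3 and 589 without LT4 replicate 1. Over all genes the count was 311 with no count filter, 115 by DESeq2, 42 after thinning, 37 with the length trend removed, 77 with the GC trend removed and 1 at an adjusted p under 0.01. The members' median was -0.049 with library totals only, -0.13 with no filter and -0.13 after thinning; by the other alternatives it ranged from -0.12 to -0.08.

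Of 368 values of the 23 named members under alternatives, 341 kept their direction and side of the threshold, 8 passed the threshold and 19 changed sign. Size was less stable: of the 243 kept values in fits to all 5 libraries, 30 moved by more than 1.5 times, 11 of them with the GC trend and 6 with the length trend removed. POLE was -0.066 with the length trend removed, ORC3 -0.017 and POLD1 0.047 with the GC trend removed. RPA3 was 0.0073 with library totals, 0.081 by DESeq2, 0.077 after thinning and 0.012 with the length trend removed, and MCM4 0.028 with library totals and 0.014 after thinning. Leaving out 1 library gave -0.16 to 0.51 for POLE, -0.18 to 0.95 for RFC3, -0.81 to 0.80 for RPA3, -0.71 to 0.27 for POLD1, -0.12 to 0.61 for POLE2, -0.61 to 0.021 for MCM2, -0.18 to 0.11 for MCM4 and -0.39 to 0.10 for MCM5. The causes were not tested. Ranked by CPM in place of TPM, 8 of the 10 highest members were the same. Depth limits the members of LT4 replicate 3 most, POLE2 with 19 counts and ORC2 with 21 being the lowest there, and groups of 2 and 3 libraries are too small to test a single library as outlying.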
